A study of Mus musculus with 6 samples.

Results

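The genes described here are 36 genes of fatty acid oxidation and ketone body metabolism. In irradiated mouse jejunum 10777 genes could be tested. The 36 were chosen by function, though with earlier results of these data known. They cover fatty acid uptake and activation, the carnitine shuttle, the mitochondrial and peroxisomal oxidation enzymes, electron transfer, acyl-CoA thioesterases, the receptor Ppara with some of its target genes, and the enzymes of ketone body use. A probe named for the gene was on the array for 35 of them and a probe passed the detection filter for 33, so that 66 named and 58 tested probes stand behind the values. Acsl1, a long-chain acyl-CoA synthetase, had no named probe. The probe of Ppara, the lipid-sensing nuclear receptor, was detected on 1 of 6 arrays, and the probe of Acat1, the mitochondrial acetoacetyl-CoA thiolase, on 0 arrays, so that neither was tested.

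All 6 animals were male C57BL/6J mice aged 8 weeks that received 9 Gy total body irradiation (TBI), and no unirradiated mouse enters the comparison. Directly after TBI, 3 mice received EGFP and 3 received NeuroD-EGFP, each at 0.1 mM by the intraperitoneal route. NeuroD is a basic helix-loop-helix transcription factor that binds the E-box CANNTG, here fused to enhanced green fluorescent protein (EGFP), while the controls received unfused EGFP. RNA from the jejunum of each mouse, taken at 12 h, was hybridized to 1 array of an Illumina Mouse WG-6 beadchip. Levels are log2 intensities after background correction and quantile normalization, and every difference is NeuroD-EGFP minus EGFP, so that a negative value means lower with NeuroD-EGFP. A difference was called at an adjusted p under 0.05 in limma, with adjustment over all tested probes, and unadjusted p-values are given beside it. The smallest two-sided p that exact permutation of 3 against 3 mice can give is 0.1. The limma p-values set each group difference against the variation between mice, with the variance of each probe drawn towards that of all tested probes. The labels number the animals and say nothing else of how they were kept. An influence of housing or handling shared by a group could therefore not be told apart from the treatment.

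Fatty acid oxidation breaks fatty acids down to acetyl-CoA in mitochondria. Long chains are first joined to coenzyme A, carried through the mitochondrial membranes as carnitine esters, and then shortened in repeated rounds of dehydrogenation, hydration, dehydrogenation and thiolysis, while peroxisomes shorten very long chains. The liver turns part of the acetyl-CoA into ketone bodies, which other tissues convert back to acetyl-CoA. In the small intestine these genes are expressed mainly in absorptive enterocytes, which handle dietary fat, and intestinal stem cells are known to make use of both fatty acid oxidation and ketone bodies.

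One library went against its label, and leaving it out moved many of the differences given below. In EGFP mouse 3, lactase (Lct), the milk sugar enzyme of the proximal small intestine, had a log2 intensity of 4.56 and was not above background, while EGFP mice 1 and 2 had 12.14 and 12.95 and the mice given NeuroD-EGFP had 12.94, 12.95 and 13.26. Fabp6, the ileal bile acid binding protein, had a deposited signal of 18911 in EGFP mouse 3 and between -51.9 and 36.5 in the other 5. EGFP mouse 3 thus carried the ileal marker Fabp6 and lacked the jejunal marker Lct. Its probes of Gata4 and Onecut2, transcription factors of the proximal intestine, were not above background either. Of the enterocyte markers, apolipoprotein Apoa4 was low there as well, at 11.17 against 14.46 to 14.66 in the other 5, whereas villin (Vil1), at 13.64, lay within their range of 13.45 to 13.83, and the peptidases Anpep and Dpp4, at 14.50 and 13.55, were the highest of the 6 mice. Slc51a and Slc51b, the subunits of the bile acid exporter, read 13.71 and 13.05 in EGFP mouse 3. The other 5 mice lay below, at 12.08 to 12.31 and 10.73 to 11.59. Slc10a2, also listed as distal, was above background on 0 arrays. Cybrd1, also listed as proximal, was above background in EGFP mice 1 and 3 only. Some markers also differed between the remaining mice. Apob, the enterocyte marker of lowest unadjusted p, stood at 11.42, 11.74 and 11.23 with EGFP and at 12.32, 12.46 and 12.45 with NeuroD-EGFP. Its difference was 0.95 (standard error 0.17, unadjusted p 0.000764, adjusted p 0.762 in limma). Of 14 tested enterocyte markers, 12 had a positive and 2 a negative difference in all mice. Slc46a1, the proton-coupled folate transporter of the proximal intestine, stood at 12.39, 12.32 and 7.27 with EGFP and at 10.91, 10.35 and 10.19 with NeuroD-EGFP. Osr2, a transcription factor listed here as distal, stood at 4.63, 9.62 and 12.24 with EGFP and at 11.52, 11.78 and 11.88 with NeuroD-EGFP. For both genes the NeuroD-EGFP mice lay between EGFP mice 1 and 2 and EGFP mouse 3. Smooth muscle markers, summed up as the mean of 7 genes less their mean over all mice, were at -0.51 and -0.67 in EGFP mice 1 and 2, 0.90 in EGFP mouse 3 and from 0.03 to 0.19 after NeuroD-EGFP. EGFP mouse 1 stood apart in 13 interferon-stimulated genes, with a mean of 1.70 against -0.83 to 0.21 in the other 5. The part of position along the gut, muscle content or interferon response in the results was not tested. The results are therefore given for all mice and without EGFP mouse 3, the latter with 2 EGFP mice against 3 NeuroD-EGFP mice. In bulk tissue, fewer cells of a type and less RNA per cell cannot be told apart.

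**Figure D1:**
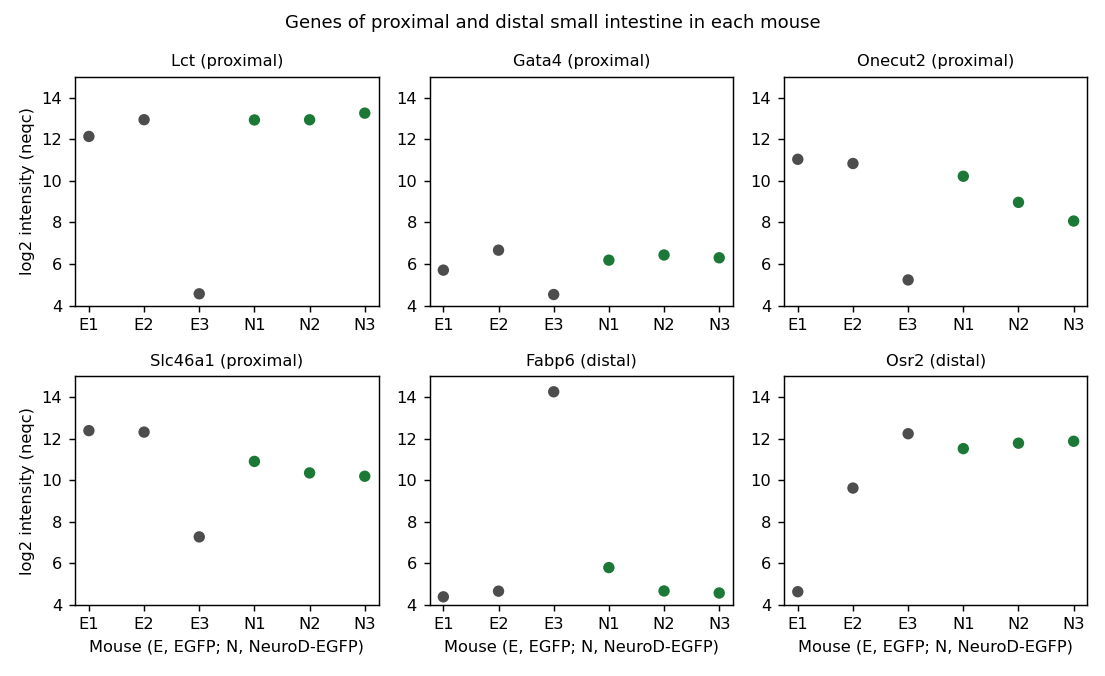
log2 intensity (vertical axis, after neqc) of 6 genes that mark proximal or distal small intestine in each mouse (horizontal axis: E1 to E3, EGFP, grey; N1 to N3, NeuroD-EGFP, green), 1 point per mouse. EGFP mouse 3 has the lowest Lct (4.56) and the highest Fabp6 (14.26) of the 6 mice.

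No gene of the set passed an adjusted p of 0.05, and neither did any of the 10777 genes (0% called). At an unadjusted p under 0.05, 2 of the 33 tested genes, Oxct1 and Acadl, were lower with NeuroD-EGFP, where 2.56% of all genes were, and 0 were higher, where 2.2% of all genes were (4.76% in either direction). The methods' t-test, run on the same values, gave 3 lower at an unadjusted p under 0.05, with Cpt1a added (3.09% of all genes lower by that test), and 0 after adjustment. The log2 difference was negative for 24 of the 33 (49.2% of all genes) and positive for 9, with a median of -0.14 against 0.0047 over all genes. That median was -0.21 without EGFP mouse 3, -0.0058 without EGFP mouse 1, -0.04 without EGFP mouse 2 and -0.08 without NeuroD-EGFP mouse 2. Of 24 tested respiratory chain genes, 17 were negative and 7 positive in all mice. Of 18 citric acid cycle genes, 8 were negative and 10 positive. Every NeuroD-EGFP mouse lay below every EGFP mouse for 4 genes, Oxct1, Acadl, Cpt1a and Slc25a20 (5.93% of all genes), and above every EGFP mouse for 3, Hadh, Acadm and Decr1 (5.44%). The same genes spread more widely among the EGFP mice, with a larger SD there for 27 of 33 (81.8%, against 74.4% of all genes) and a median SD of 0.37 against 0.15 with NeuroD-EGFP, where all genes had 0.26 against 0.14. EGFP mouse 3 was the lowest of the 6 mice for 18 of the 33 (54.5%, against 23.7% of all genes) and EGFP mouse 2 the highest for 14 (42.4%, against 20.2%). A low EGFP mouse 3 was not particular to the set. Its mean level, less that over the 6 mice, was -0.31 for the set. It was -0.49 for the citric acid cycle and -0.35 for the respiratory chain. NeuroD-EGFP mice 2 and 3 were each the highest for 1 gene (9.72% and 12.1% of all genes).

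**Figure D2:**
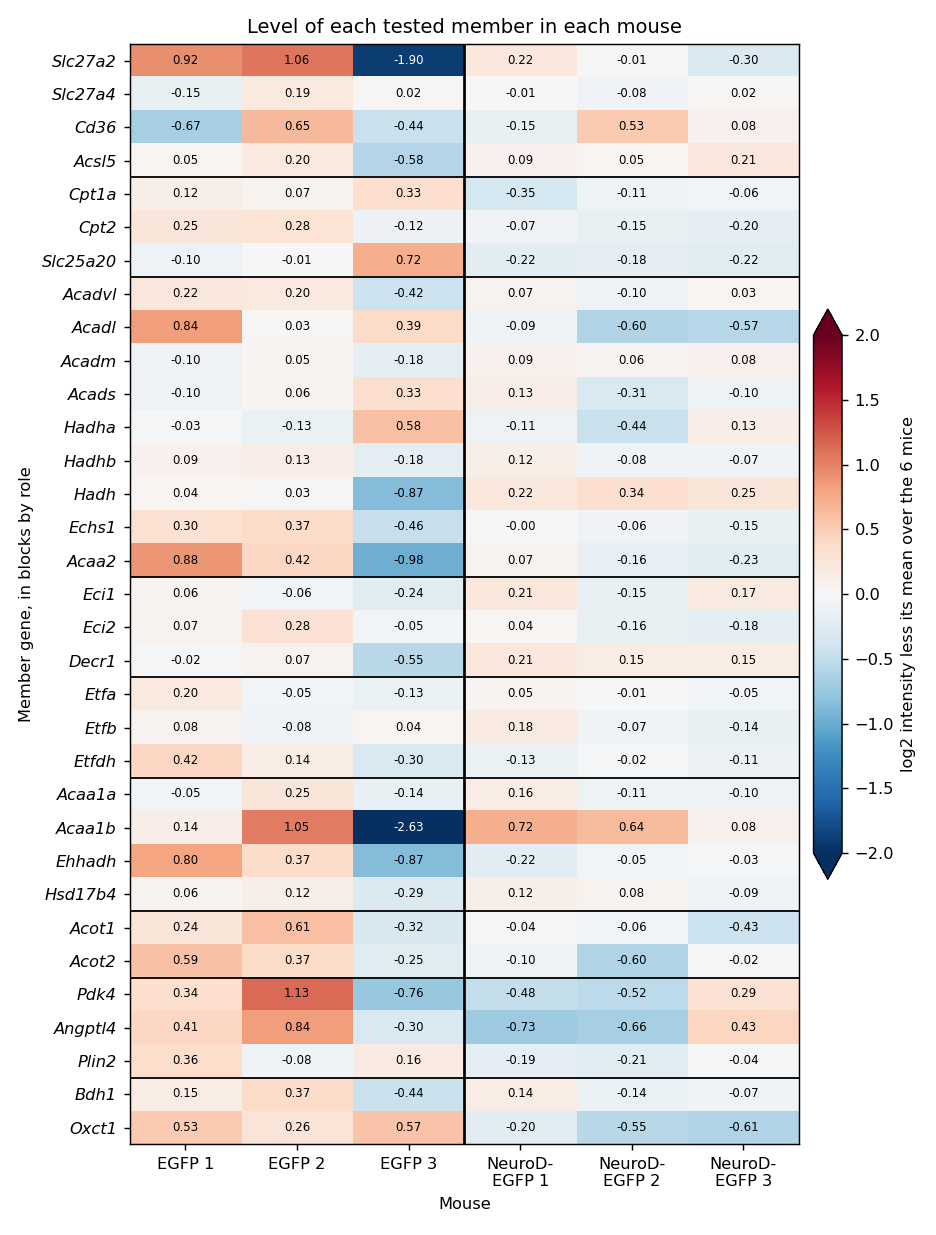
log2 intensity of the 33 tested genes in each mouse, less the gene's mean over the 6 mice (colour, limited to 2 either way, with the value printed). Rows are genes in blocks by role, columns are mice. EGFP mouse 3 holds the lowest value of the row for 18 genes, and Oxct1 and Acadl are below their mean in all 3 NeuroD-EGFP mice.

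Among the ketone body enzymes, Oxct1 had the lowest p of the set. It encodes the CoA transferase that hands coenzyme A from succinyl-CoA to acetoacetate, the committing step of ketone body use. Its brightest probe read 11.70, 11.43 and 11.75 with EGFP and 10.97, 10.62 and 10.57 with NeuroD-EGFP. The groups did not overlap, and EGFP mouse 3 was the highest of all. The log2 difference was -0.91 (standard error 0.17), a level 1.87-fold lower, with an unadjusted p of 0.00105 and an adjusted p of 0.762 in limma. The second probe read 11.34, 10.84 and 11.32 with EGFP and 10.49, 10.06 and 9.95 with NeuroD-EGFP, a difference of -0.996 (standard error 0.21) that also left the groups apart. Without EGFP mouse 3 the difference at the brightest probe was -0.85 (standard error 0.18), with an adjusted p of 0.155, and without EGFP mouse 1 it was -0.87. Over all alternatives it lay between -1.19 and -0.83. Bdh1, which interconverts the ketone bodies β-hydroxybutyrate and acetoacetate, stood at 9.98, 10.20 and 9.39 with EGFP and at 9.97, 9.69 and 9.76 with NeuroD-EGFP. Its groups overlapped, with a difference of -0.05 (standard error 0.23) in all mice and -0.28 (standard error 0.16) without EGFP mouse 3.

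Of 9 other ketone body genes listed, 4 had a tested probe, 3 with a positive and 1 with a negative difference, none at an unadjusted p under 0.05. Bdh2, a cytosolic hydroxybutyrate dehydrogenase, had a difference of 0.44 (standard error 0.33) in all mice and 0.18 (standard error 0.31) without EGFP mouse 3. Slc16a6, a transporter through which hepatocytes of zebrafish release ketone bodies, was at 10.47, 11.12 and 7.80 with EGFP and at 10.21, 10.11 and 10.15 with NeuroD-EGFP. Without EGFP mouse 3, Slc16a6 was lower by a log2 difference of -0.64 (standard error 0.21, unadjusted p 0.0193, adjusted p 0.268 in limma). Aacs, which activates acetoacetate for lipid synthesis in the cytosol, was then higher by 0.63 (standard error 0.15, unadjusted p 0.00447, adjusted p 0.183).

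**Figure D3:**
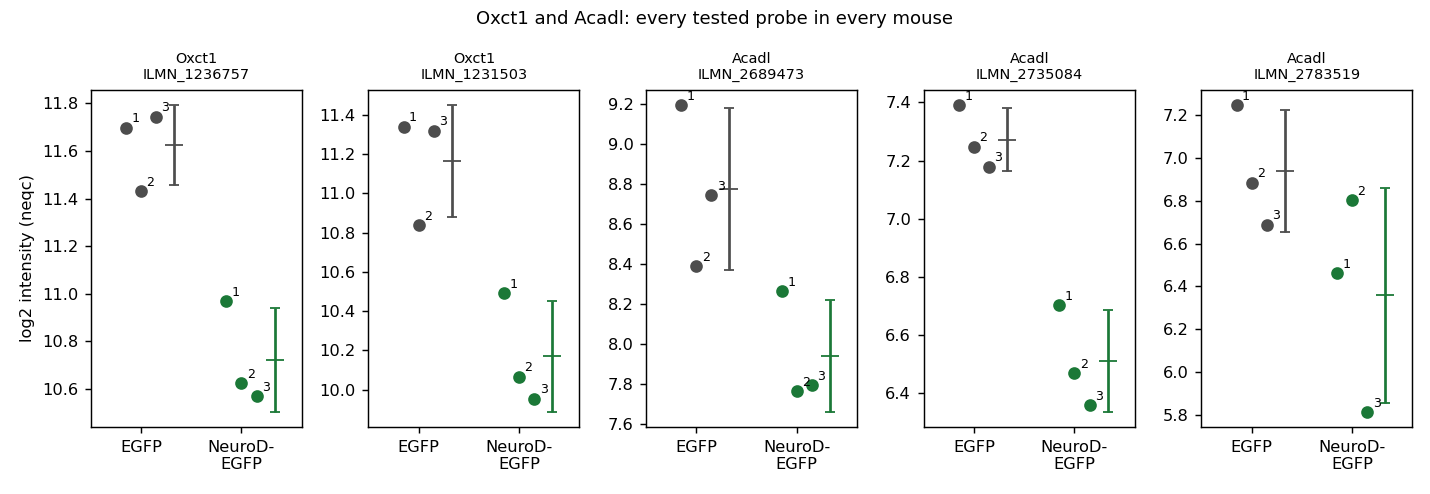
log2 intensity (vertical axis, its own range in each panel) of every tested probe of Oxct1 and Acadl, with 1 point per mouse (numbers are mouse numbers) for EGFP (grey) and NeuroD-EGFP (green) and bars for mean ± SD. On both Oxct1 probes and on 2 of the 3 Acadl probes every NeuroD-EGFP mouse lies below every EGFP mouse.

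Within the mitochondrial oxidation spiral the first step is taken by acyl-CoA dehydrogenases that differ in chain length preference. Acadl, the long-chain enzyme, read 9.20, 8.39 and 8.75 with EGFP and 8.26, 7.76 and 7.79 with NeuroD-EGFP on its brightest probe. The groups did not overlap, EGFP mouse 3 lay between the other EGFP mice, and the difference was -0.84 (standard error 0.25), a level 1.79-fold lower (unadjusted p 0.0109, adjusted p 0.917 in limma). The other probes of Acadl gave -0.76 (standard error 0.15, unadjusted p 0.00142, adjusted p 0.762), with the groups again apart, and -0.58 (standard error 0.28, unadjusted p 0.0736), with NeuroD-EGFP mouse 2 inside the EGFP range. Without EGFP mouse 3 the brightest probe gave -0.85 (standard error 0.28, adjusted p 0.265), and without EGFP mouse 1 it gave -0.63. Acadvl, the very-long-chain enzyme, showed a difference of 0.00 (standard error 0.20) in all mice and -0.21 (standard error 0.14) without EGFP mouse 3. Acadm, the medium-chain enzyme, stood at 11.85, 12.00 and 11.77 with EGFP and at 12.04, 12.01 and 12.03 with NeuroD-EGFP. The groups lay apart, with a difference of 0.16 (standard error 0.13). In the authors' unscaled log2 values the difference of Acadm was -0.13, where the median over all genes was -0.27. Acads, the short-chain enzyme, gave -0.19 (standard error 0.18) on its brighter and 0.05 (standard error 0.25) on its dimmer probe.

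For the later steps of the spiral, 0 of 5 genes reached an unadjusted p under 0.05 in all mice. Hadh, a hydroxyacyl-CoA dehydrogenase of shorter chains, stood at 9.08, 9.07 and 8.17 with EGFP and at 9.26, 9.38 and 9.29 with NeuroD-EGFP. Every NeuroD-EGFP mouse was above every EGFP mouse, with most of the distance set by EGFP mouse 3, and the difference of 0.54 (standard error 0.26, unadjusted p 0.0739, adjusted p 0.917) became 0.24 (standard error 0.13) without that mouse. On its second probe the groups overlapped, with 9.26 in EGFP mouse 2, and the difference was 0.45 (standard error 0.29). On the brightest probe of Hadh, the difference without EGFP mouse 1 or EGFP mouse 2 was 0.69 in either case. The unadjusted p-values were 0.0463 and 0.0492 in limma. Hadha and Hadhb, the subunits of the trifunctional protein that carries out the last steps for long chains, gave -0.28 (standard error 0.24) and -0.02 (standard error 0.15). Echs1, the short-chain enoyl-CoA hydratase, was at 10.58, 10.65 and 9.82 with EGFP and at 10.28, 10.21 and 10.13 with NeuroD-EGFP. Acaa2, the mitochondrial thiolase, was at 11.75, 11.29 and 9.89 against 10.95, 10.72 and 10.65. In both genes the NeuroD-EGFP mice lay below EGFP mice 1 and 2 and above EGFP mouse 3. Their differences went from -0.14 (standard error 0.24) to -0.41 (standard error 0.14, unadjusted p 0.0214, adjusted p 0.278) for Echs1, and from -0.21 (standard error 0.44) to -0.75 (standard error 0.19, unadjusted p 0.00585, adjusted p 0.196) for Acaa2, when EGFP mouse 3 was left out. All 4 probes of Acaa2 then lay between -0.89 and -0.65.

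The carnitine shuttle was negative throughout its 3 genes, with a median of -0.35 and none at an unadjusted p under 0.05. Cpt1a is the outer membrane carnitine palmitoyltransferase that controls entry of long chains. It stood at 5.77, 5.72 and 5.98 with EGFP and at 5.30, 5.55 and 5.59 with NeuroD-EGFP. It was detected in 3 EGFP and 2 NeuroD-EGFP mice. The groups lay apart by a difference of -0.35 (standard error 0.15, unadjusted p 0.0571, adjusted p 0.917), but its second probe, with 6.10 in NeuroD-EGFP mouse 1, overlapped and gave -0.17 (standard error 0.26). Slc25a20, the carnitine-acylcarnitine carrier of the inner membrane, read 11.09, 11.17 and 11.91 against 10.96, 11.003 and 10.97. Here EGFP mouse 3 was the high one, and the difference of -0.41 (standard error 0.23) shrank to -0.15 (standard error 0.13) without it. On its 2 dimmer probes the groups overlapped, with -0.42 (standard error 0.31) and -0.12 (standard error 0.20). Cpt2, which returns the acyl group to coenzyme A inside the mitochondrion, read 12.10, 12.13 and 11.74 with EGFP and 11.79, 11.71 and 11.66 with NeuroD-EGFP. Its 3 probes gave -0.28 to -0.24, and the brightest went from -0.27 (standard error 0.16) to -0.40 (standard error 0.14, unadjusted p 0.022, adjusted p 0.279) without EGFP mouse 3.

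Among the genes of fatty acid uptake and activation, Slc27a2 depended most on EGFP mouse 3. It encodes a very-long-chain acyl-CoA synthetase and fatty acid transport protein. Its brighter probe read 11.69, 11.83 and 8.86 with EGFP and 10.98, 10.75 and 10.47 with NeuroD-EGFP, so that the NeuroD-EGFP mice lay below the first EGFP mice and above the last. The difference was -0.06 (standard error 0.74) in all mice and -1.02 (standard error 0.19, unadjusted p 0.00103, adjusted p 0.129 in limma) without EGFP mouse 3, with -0.97 (standard error 0.21) on the second probe. This adjusted p was the lowest of any gene of the set under any setting. Slc27a4, the main fatty acid transport protein of enterocytes, gave -0.04 (standard error 0.15). Acsl5, an acyl-CoA synthetase abundant in small intestine, read 14.46, 14.62 and 13.83 against 14.51, 14.46 and 14.63 on its brightest probe. The difference was 0.23 (standard error 0.22) in all mice and -0.01 (standard error 0.14) without EGFP mouse 3. On a dimmer probe every NeuroD-EGFP mouse lay above every EGFP mouse. That probe gave 0.34 (standard error 0.18, unadjusted p 0.0968, adjusted p 0.917 in limma), and 0.185 (standard error 0.15) without EGFP mouse 3. The dimmest tested probe gave 0.05 (standard error 0.15) in all mice. Cd36, a receptor for long-chain fatty acids, was detected in 1 EGFP and 2 NeuroD-EGFP mice and gave 0.31 (standard error 0.36). Without EGFP mouse 2, its highest mouse, the difference was 0.71 (unadjusted p 0.0239, adjusted p 0.513).

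The stretch before the start site is shown for Oxct1, Acadl and Slc27a2, the genes with the lowest p-values in all mice and without EGFP mouse 3, because NeuroD binds E-boxes. The sequences are from RefSeq on GRCm38.p6, 250 bases each, 5′ to 3′ on the strand of the gene, with every E-box in capitals.
Oxct1 (chr15:4026178-4026427, plus strand): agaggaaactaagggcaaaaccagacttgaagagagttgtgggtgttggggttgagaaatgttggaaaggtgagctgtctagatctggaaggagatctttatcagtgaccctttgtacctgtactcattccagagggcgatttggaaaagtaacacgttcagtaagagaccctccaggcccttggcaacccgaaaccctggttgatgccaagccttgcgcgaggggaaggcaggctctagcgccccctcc
Acadl (chr1:66863310-66863559, minus strand): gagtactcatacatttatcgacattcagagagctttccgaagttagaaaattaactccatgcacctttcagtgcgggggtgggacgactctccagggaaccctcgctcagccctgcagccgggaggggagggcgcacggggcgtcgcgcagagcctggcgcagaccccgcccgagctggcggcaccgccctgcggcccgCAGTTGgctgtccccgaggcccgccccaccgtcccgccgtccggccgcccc
Slc27a2 (chr2:126552774-126553023, plus strand): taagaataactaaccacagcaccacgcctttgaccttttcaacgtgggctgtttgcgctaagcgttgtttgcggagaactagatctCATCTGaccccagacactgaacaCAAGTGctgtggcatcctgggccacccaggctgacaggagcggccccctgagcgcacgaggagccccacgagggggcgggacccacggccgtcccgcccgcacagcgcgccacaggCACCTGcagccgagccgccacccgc
Slc27a2 has 3 E-boxes in this stretch, Acadl has 1 and Oxct1 has 0. Oxct1 has an E-box of the form CAGATG after its start, at position 38, shown here in 20 bases.
Oxct1 after the start (chr15:4026458-4026477, plus strand): gtgcccgCAGATGagctgga
Of the 36 genes, 31 had RefSeq promoter entries, with 33 windows of 250 bases before and 50 after the start. The windows of Hadha and Hadhb, which are transcribed away from each other, share 228 bases. The motif CANNTG, which reads the same on both strands, lay in 21 of the 33 windows (63.6%) and in 72.3% of 32851 windows of all genes. CAGATG on either strand, part of the former, lay in 6 (18.2%) against 17.2%. The direct repeat of AGGTCA with 1 base between the copies, the form bound by peroxisome proliferator-activated receptors (PPARs), was searched on both strands. It was found exactly in 0 windows (0.0396% of all) and with at most 2 mismatches in 5 (15.2%, against 3.86%), those of Cd36, Slc25a20, Echs1, Etfa and Plin2. A match is a string of letters and no measured binding site.

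The auxiliary enzymes, which move or reduce double bonds so that unsaturated chains can enter the spiral, had a median of 0.16. Decr1, the mitochondrial dienoyl-CoA reductase, stood at 7.91, 7.99 and 7.37 with EGFP and at 8.13, 8.07 and 8.08 with NeuroD-EGFP, all above the EGFP mice. The difference was 0.34 (standard error 0.19, unadjusted p 0.119), and 0.15 (standard error 0.13) without EGFP mouse 3. The enoyl-CoA isomerases Eci1 and Eci2 gave 0.16 (standard error 0.16) and -0.20 (standard error 0.15). The flavoprotein chain that passes electrons from acyl-CoA dehydrogenases to ubiquinone gave small differences on the brightest probes in all mice. Its subunits Etfa and Etfb gave -0.01 and -0.02 (standard error 0.15 for each), and Etfdh, the ubiquinone oxidoreductase, gave -0.17 (standard error 0.20). The other probes of Etfa gave -0.17 (standard error 0.17) and -0.16 (standard error 0.15). Etfdh read 10.56, 10.29 and 9.84 against 10.02, 10.13 and 10.04, and gave -0.37 (standard error 0.15, unadjusted p 0.046, adjusted p 0.355 in limma) without EGFP mouse 3. The other tested probes of Etfdh gave -0.0025 (standard error 0.17) and -0.34 (standard error 0.22) in all mice. Without EGFP mouse 3 they gave -0.15 (standard error 0.14) and -0.55 (standard error 0.17).

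In the peroxisomal enzymes the values of EGFP mouse 3 lay farthest from the rest. Acaa1b, a peroxisomal thiolase, was at 8.33, 9.25 and 5.57 with EGFP and at 8.92, 8.84 and 8.28 with NeuroD-EGFP. Its difference of 0.96 (standard error 0.85), the largest positive value of the set, was -0.11 (standard error 0.31) without EGFP mouse 3. Its close relative Acaa1a was level across the mice, at 12.50, 12.80 and 12.41 against 12.70, 12.44 and 12.44. Ehhadh, the bifunctional hydratase and dehydrogenase of peroxisomes, was at 9.77, 9.34 and 8.10 with EGFP and at 8.75, 8.92 and 8.94 with NeuroD-EGFP. The NeuroD-EGFP mice lay below EGFP mice 1 and 2, and the difference went from -0.20 (standard error 0.39) to -0.68 (standard error 0.18, unadjusted p 0.00624, adjusted p 0.199) without EGFP mouse 3. Hsd17b4, the other bifunctional peroxisomal enzyme, gave 0.07 (standard error 0.16). The thioesterases, which split acyl-CoA back into fatty acid and coenzyme A, are Acot1 of the cytosol and Acot2 of mitochondria. Acot1 read 10.23, 10.59 and 9.67 with EGFP and 9.94, 9.92 and 9.55 with NeuroD-EGFP. Acot2 read 6.76, 6.54 and 5.93 against 6.07, 5.57 and 6.15 on its brighter probe, while its other tested probe had the opposite sign, 0.09 (standard error 0.29). The differences were -0.36 (standard error 0.25) and -0.48 (standard error 0.26) in all mice. Without EGFP mouse 3 they were -0.60 (unadjusted p 0.0172, adjusted p 0.259 in limma) and -0.72 (unadjusted p 0.0115, adjusted p 0.231). In those mice the other tested probe gave -0.62 (standard error 0.22) for Acot1, but only -0.08 (standard error 0.29) for Acot2. Acaa1a and Acaa1b, and Acot1 and Acot2, are similar pairs, and signal of one on the probe of the other was not tested.

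Pdk4, Angptl4 and Plin2, grouped here as PPAR targets outside the oxidation enzymes, had negative differences with a median of -0.47, none at an unadjusted p under 0.05. The other PPAR targets of the set were not listed in full. Among some picked here, Acaa1b, Cd36 and Acadm had positive differences with all mice, and Cpt1a, Slc25a20, Ehhadh and Acot1 negative ones. The pick followed no list, so the split is no count over the PPAR targets of the set. The difference of Acaa1b was -0.11 without EGFP mouse 3. Pdk4, the kinase that shuts off pyruvate dehydrogenase when fat is burned, was at 9.81, 10.60 and 8.71 with EGFP and at 8.99, 8.95 and 9.76 with NeuroD-EGFP. Angptl4, a secreted inhibitor of lipoprotein lipase, was at 11.07, 11.49 and 10.35 against 9.93, 9.99 and 11.09. In both genes NeuroD-EGFP mouse 3 was high and EGFP mouse 3 was low, each away from the others of its group. Pdk4 gave -0.47 (standard error 0.47) in all mice and -0.97 (standard error 0.33, unadjusted p 0.0218, adjusted p 0.279) without EGFP mouse 3. Angptl4 gave -0.63 (standard error 0.39, unadjusted p 0.151), -0.94 (unadjusted p 0.0371, adjusted p 0.331) without EGFP mouse 3, and -1.01 (unadjusted p 0.0232) without NeuroD-EGFP mouse 3. Plin2, a coat protein of lipid droplets, read 9.31, 8.88 and 9.11 with EGFP and 8.76, 8.74 and 8.92 with NeuroD-EGFP, a difference of -0.29 (standard error 0.16, unadjusted p 0.109). Without EGFP mouse 2 it was -0.40 (unadjusted p 0.0375, adjusted p 0.528).

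**Figure D4:**
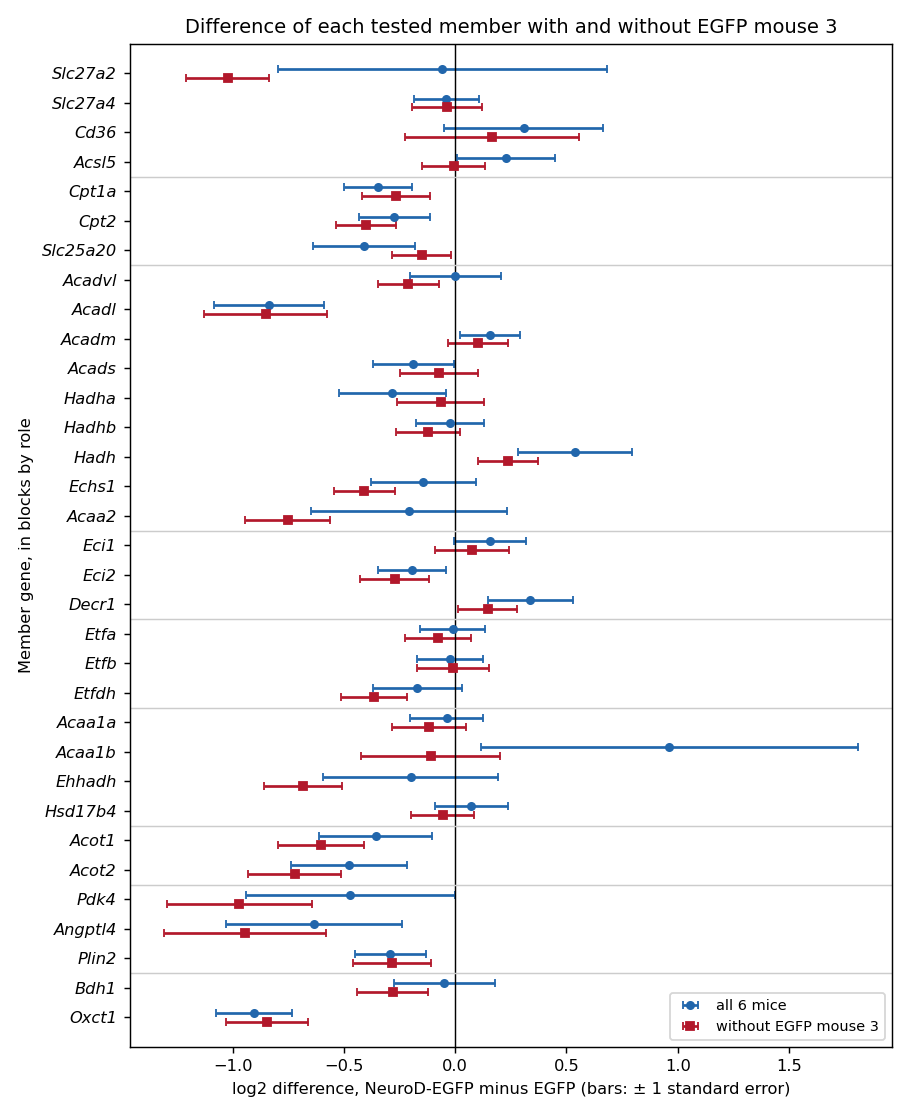
log2 difference of each tested gene, NeuroD-EGFP minus EGFP (horizontal axis, bars ± 1 standard error), in blocks by role, from all 6 mice (blue circles) and without EGFP mouse 3 (red squares). Slc27a2 moves from -0.06 to -1.02 and Acaa1b from 0.96 to -0.11 when that mouse is left out, while Oxct1 and Acadl stay near -0.9.

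Without EGFP mouse 3, 28 of the 33 genes had a negative difference (48.3% of all genes) and the median was -0.21, against 0.01 over all genes. At an unadjusted p under 0.05, 12 were lower (6.71% of all genes) and 0 higher (7.26%). The 12 were Slc27a2, Oxct1, Acaa2, Ehhadh, Acot2, Acot1, Acadl, Echs1, Pdk4, Cpt2, Angptl4 and Etfdh. For the genes whose value without this mouse is not given above, the difference was -0.06 for Hadha, -0.12 for Hadhb, -0.07 for Acads, 0.10 for Acadm, -0.04 for Slc27a4, 0.16 for Cd36, -0.27 for Cpt1a and -0.29 for Plin2. It was 0.07 for Eci1, -0.27 for Eci2, -0.08 for Etfa, -0.01 for Etfb, -0.12 for Acaa1a and -0.06 for Hsd17b4. None of the 33 passed an adjusted p of 0.05 in limma, where 16 of the 10777 genes did (0.148%). For 16 genes every NeuroD-EGFP mouse lay below both remaining EGFP mice (15.7% of all genes), and for 3 above both (16.7%). Other mitochondrial genes had negative differences beside them. Of 18 citric acid cycle genes, 17 were negative with a median of -0.28 and 5 at an unadjusted p under 0.05, among them Dld at -0.54 (standard error 0.14) and Fh1, fumarase, at -0.51 (standard error 0.15). Of 24 respiratory chain genes, 23 were negative with a median of -0.27 and 3 at an unadjusted p under 0.05. With all 6 mice the medians of these lists were 0.0074 and -0.06. In the same 5 mice all 7 smooth muscle markers were positive, with a median of 0.68 and 6 at an unadjusted p under 0.05. All 3 mesothelium markers were positive at that threshold, with a median of 0.85. All 13 interferon-stimulated genes were negative, with a median of -1.39 and 10 at an unadjusted p under 0.05, and 5 of 6 T and NK cell markers were negative, with a median of -0.68 and 2 at that threshold. The 14 enterocyte markers had a median of 0.13, with 3 negative. Of 4 proximal intestine markers 2 were lower at that threshold, with a median of -0.87. The part of these in the values of the fatty acid oxidation genes was not tested.

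Further fatty acid oxidation genes outside the set did not follow one direction. Of 39 listed, 30 were tested, 17 with a positive and 13 with a negative difference and a median of 0.04. The only one at an unadjusted p under 0.05 was Slc22a5, the plasma membrane carnitine transporter, at 10.61, 10.67 and 10.90 with EGFP and 10.08, 10.12 and 10.38 with NeuroD-EGFP. The groups lay apart and EGFP mouse 3 was the highest, with a difference of -0.53 (standard error 0.16, unadjusted p 0.0109, adjusted p 0.917 in limma) and of -0.45 (standard error 0.15) without that mouse. Acsl3, an acyl-CoA synthetase of lipid droplets, gave 0.48 (standard error 0.26) in all mice and 0.65 (standard error 0.25, unadjusted p 0.0388, adjusted p 0.336) without EGFP mouse 3. Crat, which makes acetylcarnitine, gave 0.05 (standard error 0.44) and then -0.50 (standard error 0.17, unadjusted p 0.0198, adjusted p 0.27). Without EGFP mouse 3, 19 of the 30 were negative with a median of -0.13.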

How the data were processed

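Jejunum RNA of 6 irradiated mice was copied into Cy3-labelled cRNA and read on Illumina Mouse WG-6 beadchips. The authors deposited intensities with a detection p-value for each probe and array. Their log2 values equal log2 of those intensities, with signals at or below 0 set to 4. The deposited log2 values are not scaled between arrays. The sources used here give neither the scanner software nor whether background was subtracted from the intensities. Between 18271 and 20408 of 45281 probes per array had a detection p-value under 0.05.

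From the intensities, log2 levels were computed with neqc (limma 3.58.1, R 4.3.3, offset 16). Probes detected on at least 3 of 6 arrays (19099) were tested with lmFit and eBayes, and p-values were adjusted over all of these probes (Benjamini-Hochberg). Probes were named by the platform annotation, with older symbols replaced from a RefSeq table (GRCm38.p6). A symbol was given to 34885 probes, several to 18 and none to 10378. Each of 10777 genes is represented by its brightest tested probe, and all tested probes of a named gene were looked at. Every gene of the set is named, with at most 4 genes of lowest unadjusted p from each other list and some beyond that rule. Of these, Crat, Dld, Ppargc1b, Pparg and the position markers were chosen after their values were seen. The enterocyte markers Apoa4, Vil1 and Dpp4 are also not among the 4 of lowest p in their list. The member genes and all lists were chosen with earlier results of these data known. Scripts were tested on simulated data. The deviations of same-numbered mice correlated at 0.313, -0.0878 and 0.187, so that not every pair deviated together and the numbers were not used to pair the mice. The number of arrays limits the precision. Alternatives covered offset, scaling, the authors' log2 values, the detection filter, the probe rule, a replicate block, array weights, the prior, the methods' t-test and each mouse left out. No protein sequences were used here.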

Additional observations from a re-analysis of the deposited data

How the results depend on the processing

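Oxct1 and Acadl stayed lower, at an unadjusted p under 0.05, under all 16 alternatives, and no gene of the set passed an adjusted p of 0.05 under any of them. With the authors' unscaled log2 values, the median difference over all genes was -0.27, and 5 genes were lower at an unadjusted p under 0.05 (10.9% of all genes). There, 7 genes lay wholly below and 0 wholly above the EGFP mice, but the share of all genes doing so was not counted. Acadvl (-0.26), Acadm (-0.13), Eci1 (-0.11) and Hsd17b4 (-0.20) turned negative. The mean of a gene's probes left 2 genes wholly below, again with no share of all genes counted, and turned Slc27a2 to 0.0037. Array weights gave 4 lower (4.6% of all genes), a median of -0.23, -0.57 for Slc27a2 and -0.14 for Acadvl, and scaling to the 75th percentile gave -0.018 for Acadvl.

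With 1 mouse left out, between 2 and 12 genes were lower at an unadjusted p under 0.05 and between 0 and 2 higher (between 1.51% and 6.71% of all genes lower and between 1.18% and 7.26% higher), between 4 and 16 lay wholly below and between 3 and 4 wholly above, and the median lay between -0.21 and -0.0058. The 12 and the 16 came without EGFP mouse 3, where 15.7% of all genes lay wholly below and 16.7% wholly above. For the other mice left out, the share of all genes lying wholly below or above was not counted. The 2 higher came without EGFP mouse 2, where 5.43% of all genes were higher, and 1 was higher without EGFP mouse 1, where 1.53% were. Genes that changed sign ranged from -1.02 to 0.46 (Slc27a2), -0.13 to 0.045 (Slc27a4), -0.0072 to 0.38 (Acsl5), -0.21 to 0.11 (Acadvl), -0.12 to 0.035 (Hadhb), -0.41 to 0.0079 (Echs1), -0.75 to 0.18 (Acaa2), -0.077 to 0.085 (Etfa), -0.12 to 0.044 (Etfb), -0.12 to 0.076 (Acaa1a), -0.11 to 1.73 (Acaa1b), -0.68 to 0.15 (Ehhadh), -0.056 to 0.15 (Hsd17b4) and -0.28 to 0.12 (Bdh1). The cause was not tested.

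With the replicate number as a block, 2 genes were lower and 0 higher, 0 passed an adjusted p of 0.05 and the median was -0.14, but the numbers were not taken to pair the mice, and 2 of the 3 numbers had their highest correlation with their own number. The other settings kept these counts within 1.5 times. With 3 mice in a group, 1 EGFP mouse with ileal markers limits what can be seen, and a gene that missed the threshold is not shown to be equal between the groups.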

Other observations

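Of 25 genes linked to PPAR signalling outside the set, 16 were tested, 12 with a positive and 4 with a negative difference and a median of 0.13, and 0 reached an unadjusted p under 0.05 in all mice. Plin5, a lipid droplet coat protein of tissues that burn fat, was at 6.77, 6.75 and 6.58 with EGFP and at 6.32, 6.33 and 6.49 with NeuroD-EGFP, a difference of -0.32 (standard error 0.14, unadjusted p 0.0532, adjusted p 0.917 in limma) with no overlap between the groups. Plin3, a lipid droplet coat protein found in most cells, gave 0.42 (standard error 0.21) in all mice and 0.27 (standard error 0.20) without EGFP mouse 3. Fabp1, the liver fatty acid binding protein, was at 7.16, 7.61 and 4.97 with EGFP and at 7.81, 7.46 and 7.24 with NeuroD-EGFP, again with EGFP mouse 3 as the low one, and gave 0.93 (standard error 0.63) in all mice and 0.12 (standard error 0.22) without it. Without EGFP mouse 3, Ppargc1b, a coactivator of mitochondrial genes, Pparg, the adipose PPAR, and Plin5 were lower at an unadjusted p under 0.05, by log2 differences of -0.49, -0.43 and -0.38, and Vnn1, a pantetheinase, was higher by 0.89 (adjusted p between 0.245 and 0.362).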
